A study of Mus musculus with 6 samples.

Results

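Matrix metalloproteinases and their tissue inhibitors were followed in cultured mouse aortic smooth muscle cells after inhibition of gamma-secretase. The 10 genes were Mmp2, Mmp3, Mmp9, Mmp11, Mmp13, Mmp14, Mmp19, Timp1, Timp2 and Timp3, chosen by symbol from the 37309 genes of the deposited table. Each symbol stood on 1 row. Of the 10 genes, 9 passed the filter of a normalised count of at least 10 in at least 3 libraries, and Mmp9 did not. The cells were isolated from descending aorta of the Immorto strain, mice that carry a conditional viral T antigen transgene which lets their cells divide in culture, and both groups shared this background. One group of 3 libraries was exposed for 3 days to DAPT at 50 µM, a blocker of the gamma-secretase complex, which cuts Notch receptors so that their signalling fragment is freed. The other group of 3 libraries received the DMSO vehicle for the same 3 days. No source used here gives the animals' age or number, or says that the libraries of a group were separate cultures, so p-values measure only the spread between these libraries, which may be technical. The study concerned Sox9 and Jag1 in the smooth muscle of the vessel wall, and the comparison asked which transcripts differed when gamma-secretase was inhibited.

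Matrix metalloproteinases (MMPs) are zinc proteases made as inactive precursors. Many are cut into their active form outside the cell or at its surface, and some inside the cell. Collagenases open fibrillar collagen, gelatinases digest the denatured collagen and basement membrane, stromelysins have a broad range of matrix targets, and membrane-type MMPs act at the cell surface. Tissue inhibitors of metalloproteinases (TIMPs) bind the active site of these enzymes. In the wall of the aorta the balance between proteases and inhibitors is known to bear on the turnover of collagen and elastin. All values here are transcript levels and carry no information on protein or enzyme activity.

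Under DAPT the inhibitors Timp3 and Timp1 fell, the protease gene Mmp11 fell by a smaller amount, and Mmp3 and Mmp14 rose slightly, while Timp2, Mmp2, Mmp13 and Mmp19 did not pass the test. Of the 9 genes tested 5 passed a limma adjusted p of 0.05, 2 higher and 3 lower. Across all 14906 genes tested 18.1% passed, 9.22% higher and 8.91% lower, and among the 11092 tested genes with a mean of at least 100 the share was 21.8%. The 3 DAPT values lay outside the range of the 3 vehicle values in 6 of the 9 genes, against 33.3% of all genes tested. The median log2 change was -0.0024 over the 9 genes and 0.0009 over all genes tested. Of the 10 genes, 3 in the authors' deposited table, Timp3, Timp1 and Mmp14, had an adjusted p below 0.05 there, against 6.19% of the 22960 genes with a value. Count tests on the reads of 5 libraries called Timp3 and Timp1 lower and none of the 9 genes higher, with edgeR (13.0% of all genes called) and with DESeq2 (7.46%). At an unadjusted p below 0.05, edgeR had 2 higher and 3 lower, and DESeq2 had 2 higher and 2 lower. The share of all genes at this unadjusted threshold was not counted, so these counts have no baseline here.

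**Figure D1:**
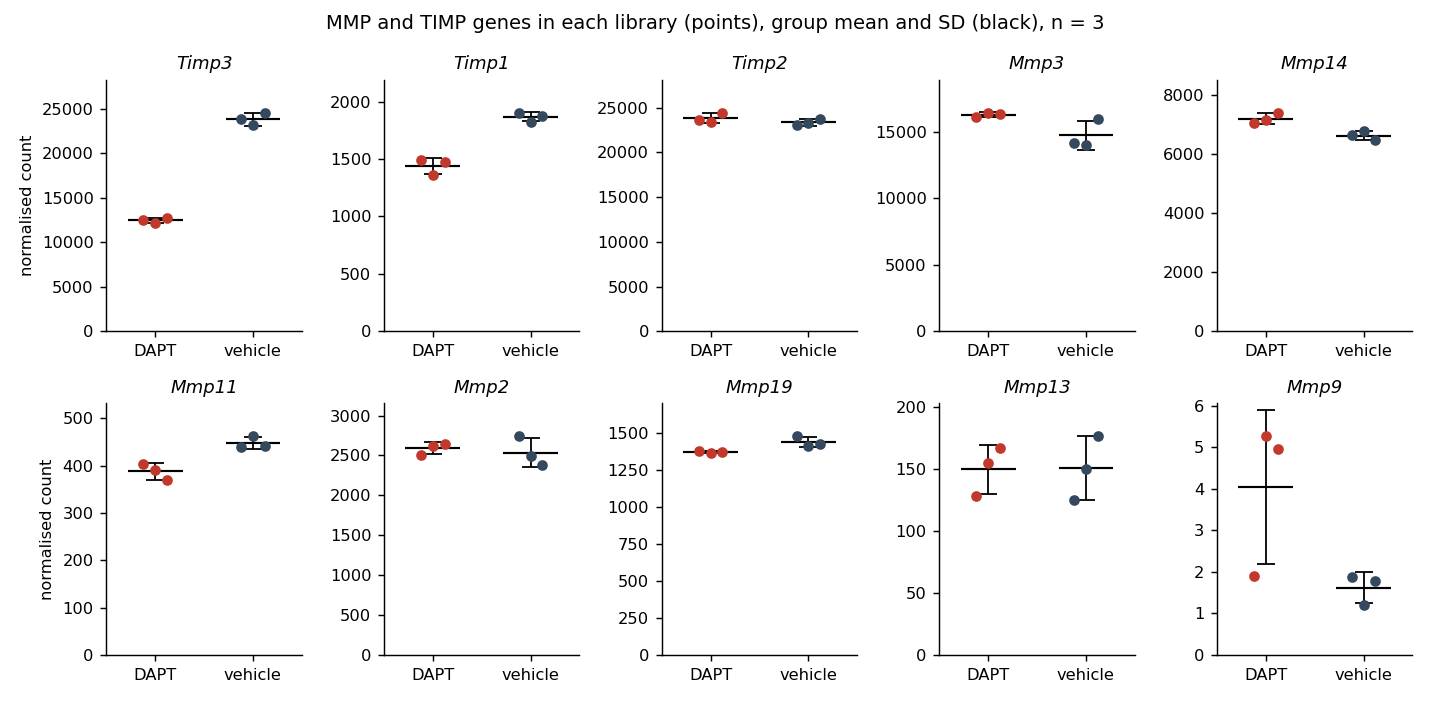
Normalised count of each of the 10 genes in every library, with DAPT on the left and vehicle on the right of each panel, bars for the group mean and SD (n = 3), and axes starting at 0. Timp3 lies between 12165 and 12704 under DAPT and between 23119 and 24575 in vehicle, while the points of Timp2 overlap between the groups.

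Timp3, on chromosome 10, encodes the inhibitor that stays bound to the matrix and that also inhibits ADAM and ADAMTS proteases. Its normalised counts were 12461, 12165 and 12704 in the DAPT libraries, against 23840, 23119 and 24575 in the vehicle libraries. Every DAPT library was far below every vehicle library, and the spread within each group was small. The mean was 12443 ± 270 under DAPT and 23845 ± 728 in vehicle (SD, n = 3 each). On the log2(value + 1) scale the difference was -0.94 with an SE of 0.0331, or 1.92-fold (limma adjusted p = 5.77e-16). This was the p-value of rank 3 among the 14906 genes tested, and in the authors' deposited table Timp3 had the lowest p-value of all genes, rank 1, with a log2 ratio of -0.94. The call held under all 16 alternative settings, with log2 changes between -0.96 and -0.87. The summed level of 7 markers of mesothelium, the lining on the outer side of many organs, was also lower under DAPT, at 1523 to 1651 under DAPT and 2900 to 2962 in vehicle, and its part in the change of Timp3 was not tested.

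Timp3 lies inside Syn3, a synapsin gene of the opposite strand, in the GENCODE M21 annotation (build GRCm38, while mm9 is named in the submitters' processing notes). The exons of the pair share 1733 bases there, of 8144 bases of merged Timp3 exon. Synapsins are best known from nerve terminals. Syn3 was listed at 4815, 4724 and 4871 under DAPT and at 9202, 8699 and 9716 in vehicle, and its log2 change was, as for Timp3, -0.94 (SE 0.0365, limma adjusted p = 4.08e-15). The ratio of Syn3 to Timp3 counts was 0.386, 0.388 and 0.383 in the DAPT libraries and 0.386, 0.376 and 0.395 in the vehicle libraries, with the DAPT values inside the vehicle range. No source used here says whether reads were counted by strand, so reads of Timp3 and Syn3 cannot be told apart where their exons overlap. Timp1 likewise lies inside Syn1 on the opposite strand, but these exons share 0 bases, and Syn1 was at 36.1 ± 2.12 under DAPT and 28.7 ± 5.41 in vehicle (SD, n = 3 each, limma adjusted p = 0.273).

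**Figure D2:**
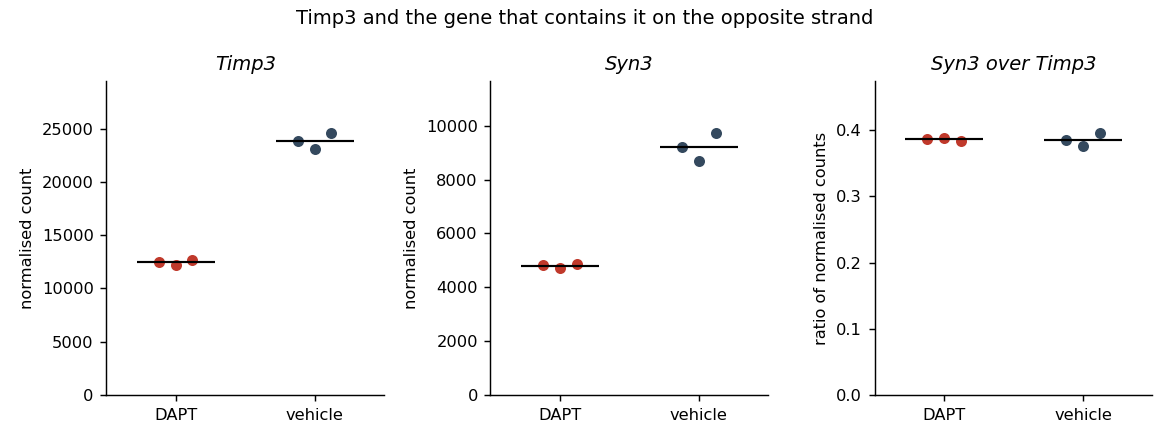
Normalised counts of Timp3 and of Syn3, the gene that contains it on the opposite strand, and the ratio of Syn3 to Timp3, for each library, with DAPT on the left, vehicle on the right and a bar at the group mean. Both genes are lower under DAPT, and the ratio stays between 0.376 and 0.395 in all 6 libraries.

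Timp1, on the X chromosome, encodes a soluble inhibitor that acts on most secreted MMPs and only weakly on several membrane-type ones. The DAPT libraries had normalised counts of 1491, 1363 and 1475, against 1905, 1826 and 1871 in vehicle. The groups did not overlap. The mean was 1443 ± 69.8 under DAPT and 1867 ± 39.7 in vehicle (SD, n = 3 each). Timp1 thus fell 1.29-fold, a log2 change of -0.37 with an SE of 0.0409 (limma adjusted p = 2.49e-07), and the call held under all 16 alternative settings.

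Timp2, on chromosome 11, encodes the inhibitor that also joins the Mmp14 protein at the cell surface to bring the Mmp2 precursor to its activator. It had 23671, 23444 and 24461 normalised counts under DAPT and 23059, 23234 and 23785 in vehicle, and the groups overlapped. The log2 change was 0.03 with a 95% interval of -0.04 to 0.10 (limma adjusted p = 0.584), which corresponds to -2.48% to 6.95%. Set against Timp2 in the same library, the count of Timp3 was 0.526, 0.519 and 0.519 of that of Timp2 under DAPT and 1.03, 0.995 and 1.03 of it in vehicle. The corresponding ratio for Timp1 was 0.0605 ± 0.0024 under DAPT and 0.0799 ± 0.0023 in vehicle (SD, n = 3 each). These ratios describe the libraries and were not tested.

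The starts of Timp3 and Timp1, the inhibitor genes that fell, are shown with that of Mmp3, the most abundant protease per length, and that of Mmp13, from the same cluster on chromosome 9, because these windows differ in the motifs they hold. RefSeq windows (GRCm38.p6, 250 bases before to 50 after the start) were at hand for 7 of the 10 genes. Both strands were searched for the AP-1 motif, the site of Fos and Jun factors, spelled TGACTCA. The box that positions the start of transcription in some promoters was searched as TATAAA. For RBPJ, the DNA-binding partner of Notch, the letters searched were TGGGAA. The 3 motifs do not overlap in these windows, and capitals mark each match, printed as it reads on the strand of the gene.
Timp3, chr10:86300162-86300461, plus strand: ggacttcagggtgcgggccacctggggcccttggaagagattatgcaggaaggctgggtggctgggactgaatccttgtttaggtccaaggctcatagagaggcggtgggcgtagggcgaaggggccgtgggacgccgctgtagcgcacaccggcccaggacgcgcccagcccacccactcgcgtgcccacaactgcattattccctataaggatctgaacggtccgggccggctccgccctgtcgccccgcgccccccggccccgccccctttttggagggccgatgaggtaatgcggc
Timp1, chrX:20869916-20870215, plus strand: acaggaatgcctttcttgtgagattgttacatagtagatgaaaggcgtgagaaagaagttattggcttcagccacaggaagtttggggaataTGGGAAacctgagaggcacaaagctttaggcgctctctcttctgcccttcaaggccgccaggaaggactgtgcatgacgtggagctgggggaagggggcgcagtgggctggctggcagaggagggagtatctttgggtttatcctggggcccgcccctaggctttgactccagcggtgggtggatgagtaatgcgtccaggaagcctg
Mmp3, chr9:7445572-7445871, plus strand: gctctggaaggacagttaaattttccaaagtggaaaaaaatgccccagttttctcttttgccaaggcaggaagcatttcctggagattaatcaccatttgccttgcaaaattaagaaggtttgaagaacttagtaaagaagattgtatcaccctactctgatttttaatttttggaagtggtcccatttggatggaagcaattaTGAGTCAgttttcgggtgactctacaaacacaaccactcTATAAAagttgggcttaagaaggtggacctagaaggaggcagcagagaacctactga
Mmp13, chr9:7272264-7272563, plus strand: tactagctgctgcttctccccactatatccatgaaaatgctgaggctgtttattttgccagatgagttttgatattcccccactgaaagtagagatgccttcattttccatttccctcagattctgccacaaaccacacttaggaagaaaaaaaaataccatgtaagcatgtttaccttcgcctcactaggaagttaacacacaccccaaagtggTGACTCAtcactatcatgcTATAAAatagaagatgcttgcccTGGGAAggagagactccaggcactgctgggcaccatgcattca

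The AP-1 motif was found in 2 of the 7 windows, those of Mmp3, with its first base at -46 from the start and on the minus strand, and of Mmp13, at -35 and on the plus strand. The same 2 windows held the box for the start of transcription, at -7 in Mmp3 and at -16 in Mmp13. Among all 32851 windows 5.20% held the AP-1 motif and 13.6% held this box. The RBPJ letters were found in Timp1, at -158, and in Mmp13, at base 8 of the transcript, and in 25.6% of all windows. The window of Timp3 held none of the 3 motifs, and neither did those of Timp2, Mmp11 and Mmp14. The GC share was 67.0% in the Timp3 window, 55.0% in that of Timp1, 43.7% in that of Mmp13 and 40.0% in that of Mmp3, with a median of 52.7% over all windows. A match is a string of letters in this window and not a shown site.

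Among the stromelysins, Mmp3, on chromosome 9, encodes a protease of broad range that also activates other MMP precursors. In the DAPT libraries it stood at 16091, 16463 and 16322 normalised counts, against 14192, 14026 and 15993 in vehicle. The groups did not overlap, although vehicle replicate 3 lay close to the DAPT values. The mean was 16292 ± 188 under DAPT and 14737 ± 1091 in vehicle (SD, n = 3 each). Mmp3 rose 1.11-fold, a log2 change of 0.15 with an SE of 0.0395 (limma adjusted p = 0.0101). Its call was lost in limma without DAPT replicate 2 (adjusted p = 0.0656) or vehicle replicate 2 (0.0906), and with edgeR (0.0525) and DESeq2 (0.0991) on 5 libraries.

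Mmp11, on chromosome 10, encodes a stromelysin that is activated inside the cell by furin-type convertases. The normalised counts were 405, 391 and 369 under DAPT, against 440, 462 and 442 in vehicle, and every DAPT value was below every vehicle value. It fell by 13.3% (log2 change -0.21, SE 0.0596, limma adjusted p = 0.0167), at 389 ± 17.8 under DAPT and 448 ± 12.4 in vehicle (SD, n = 3 each). This call was lost in limma without DAPT replicate 3 (adjusted p = 0.0981) or vehicle replicate 2 (0.0788), and with edgeR (0.11) and DESeq2 (0.434) on 5 libraries. Its exons share 155 bases with Chchd10 on the opposite strand, which was listed at 9.58 ± 2.26 under DAPT and 8.96 ± 1.24 in vehicle (SD, n = 3 each).

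Mmp14, on chromosome 14, encodes a membrane-anchored collagenase that cuts the Mmp2 precursor. It was listed at 7036, 7126 and 7391 normalised counts under DAPT and 6623, 6751 and 6470 in vehicle, with no overlap. The rise was 1.09-fold (log2 change 0.12, SE 0.0327, limma adjusted p = 0.0117), and the call was lost in limma without DAPT replicate 3 (adjusted p = 0.0898) and with edgeR (0.106) and DESeq2 (0.206) on 5 libraries. Mmp2, on chromosome 8, the gelatinase that Mmp14 activates, was at 2503, 2616 and 2647 under DAPT and at 2741, 2489 and 2378 in vehicle. The Mmp2 groups overlapped, and the 95% interval of its log2 change of 0.03 ran from -0.06 to 0.12 (limma adjusted p = 0.686).

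Mmp9, on chromosome 2, the other gelatinase, was near the limit of detection. It was listed at 1.90, 5.26 and 4.95 under DAPT and at 1.88, 1.2 and 1.77 in vehicle, which are 2, 5 and 5 reads in the DAPT libraries and 2, 1 and 2 reads in the vehicle libraries. Without a filter its limma adjusted p was 0.290, and no fold is given at this depth. Mmp13, on chromosome 9, the main collagenase of fibrillar collagen in mice, had 128, 155 and 166 under DAPT and 125, 150 and 176 in vehicle. The Mmp13 groups spanned almost the same range, with a 95% interval of the log2 change from -0.25 to 0.24 (limma adjusted p = 0.994), or -15.7% to 18.2%. Mmp19, on chromosome 10, a protease known from blood vessels and smooth muscle, was at 1379, 1366 and 1377 under DAPT and at 1481, 1418 and 1428 in vehicle. The Mmp19 values did not overlap between groups, but its log2 change of -0.07 did not pass (SE 0.0386, limma adjusted p = 0.232). The exons of Mmp19 share 789 bases with a gene of the opposite strand, listed in the table as 1110012D08Rik at 745 ± 22.3 under DAPT and 758 ± 30.3 in vehicle (SD, n = 3 each), and reads in that stretch cannot be assigned to 1 of the pair.

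Levels of different genes were compared as normalised count per kilobase of the deposited gene length. Mmp3 and Timp2 led in both groups, with Mmp3 at 9061 ± 104 per kilobase under DAPT and 8196 ± 607 in vehicle, and Timp2 at 5831 ± 130 under DAPT and 5709 ± 92.6 in vehicle (SD, n = 3 each). Below them the order under DAPT was Mmp14, Timp3, Timp1, Mmp2, Mmp19, Mmp11, Mmp13 and Mmp9, and in vehicle Timp3, Mmp14, Timp1, Mmp2, Mmp19, Mmp11, Mmp13 and Mmp9. No neighbours in either order had overlapping ranges over the 3 libraries. Timp3 stood at 1445 ± 31.3 per kilobase under DAPT and 2769 ± 84.5 in vehicle, and Mmp14 at 2767 ± 71.0 under DAPT and 2547 ± 54.2 in vehicle (SD, n = 3 each). The places of Timp3, Mmp14 and Timp1 depend on the length used. Timp3 lay above Mmp14 in both groups with the longest GENCODE M21 transcript or the merged exons as length, a choice made after seeing the data. Among all genes tested Mmp3, Timp2 and Mmp14 stood at the 99.8, 99.6 and 99.1 percentile of the level per kilobase, and Mmp13 at the 38.3 percentile.

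Summed over the 3 inhibitors, the level per kilobase was 8529 ± 204 under DAPT and 10100 ± 175 in vehicle, and summed over the 7 proteases it was 13236 ± 174 under DAPT and 12169 ± 519 in vehicle (SD, n = 3 each). Most of the protease sum was Mmp3, which made up 68.5% ± 0.420 of it under DAPT and 67.3% ± 2.07 in vehicle (SD, n = 3 each). No inhibitor sum under DAPT reached the lowest vehicle sum. Timp3 made up 16.9% ± 0.0452 of the inhibitor sum under DAPT and 27.4% ± 0.384 in vehicle, while Timp2 made up 68.4% ± 0.490 under DAPT and 56.5% ± 0.526 in vehicle (SD, n = 3 each). The sums are descriptions without a test, since the genes were chosen. In vehicle the inhibitor sum exceeded the protease sum with the longest transcript as length (13462 against 11726) and with merged exons (11026 against 10671). Under DAPT the protease sum was the larger with each length.

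**Figure D3:**
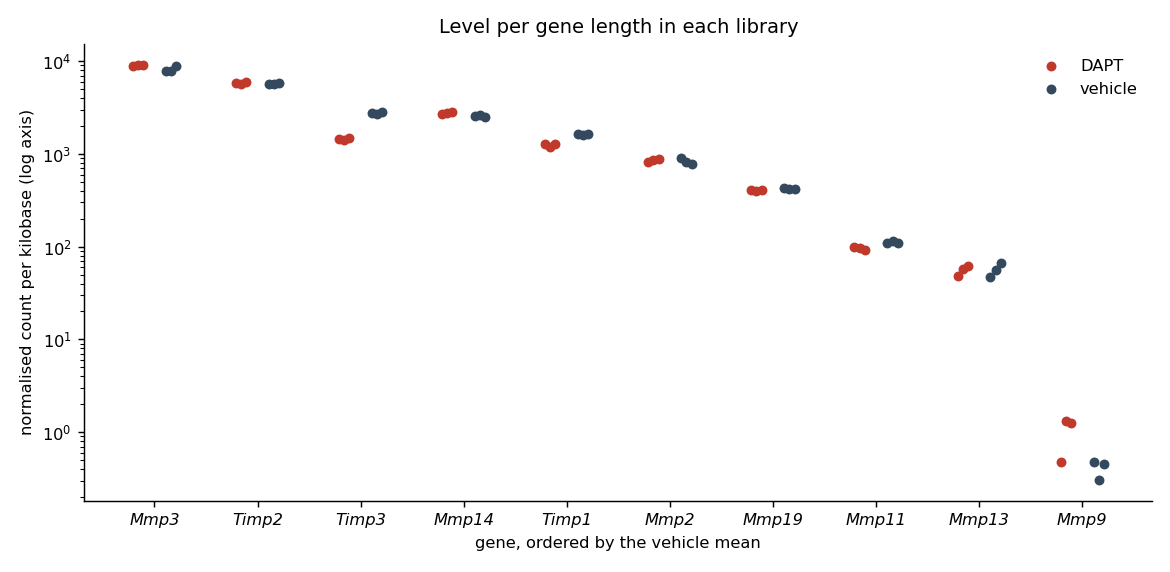
Normalised count per kilobase of deposited gene length for each of the 10 genes in every library, on a log axis, with DAPT to the left of vehicle and genes ordered by the vehicle mean. Mmp3, at 9061 under DAPT and 8196 in vehicle, lies highest and Mmp9, at 1.02 under DAPT and 0.41 in vehicle, lowest.

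The other 17 genes of the MMP and TIMP family, taken from a fixed list, held 9 that passed the filter, with 2 higher, 2 lower and 5 that missed the threshold and a median log2 change of -0.02. The share called was 44.4%, against 18.1% of all genes tested. Mmp17, a protease held to the cell surface by a lipid anchor, changed most. Its normalised counts were 136, 135 and 116 under DAPT, against 244, 268 and 246 in vehicle, with every DAPT library below every vehicle library. The fall was 1.96-fold (log2 change -0.97, SE 0.0906, limma adjusted p = 1.90e-08), and the call held under all 16 alternative settings. Mmp23, whose product lacks the C-terminal domain common to most MMPs, fell to 1164 ± 63.4 under DAPT, against 1292 ± 10.5 in vehicle (SD, n = 3 each, limma adjusted p = 0.0148), a call lost without DAPT replicate 2 or 3 and with edgeR and DESeq2. Mmp15, a membrane-type MMP close in structure to Mmp14, rose 1.18-fold to 527 ± 16.5 under DAPT, against 446 ± 34.9 in vehicle (SD, n = 3 each, limma adjusted p = 0.00632), a call lost with DESeq2. The stromelysin Mmp10 rose 1.12-fold to 917 ± 8.53 under DAPT, against 822 ± 38.1 in vehicle (SD, n = 3 each, limma adjusted p = 0.0182). The Mmp10 call was lost without DAPT replicate 2 or 3 and without vehicle replicate 2, and with edgeR and DESeq2.

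The membrane-type genes Mmp16, at 73.7 ± 6.31 under DAPT and 81.4 ± 17.4 in vehicle, and Mmp24, at 347 ± 11.1 under DAPT and 352 ± 26.3 in vehicle, did not pass (SD, n = 3 each, limma adjusted p = 0.643 and 0.893). Neither did Mmp27, at 72.7 ± 3.86 under DAPT and 59.7 ± 11.2 in vehicle (limma adjusted p = 0.188), Mmp28, at 161 ± 11.7 under DAPT and 146 ± 11.4 in vehicle (0.354), or the macrophage elastase Mmp12, at 17.2 ± 4.99 under DAPT and 16.9 ± 1.02 in vehicle (SD, n = 3 each, 0.977). Of the 27 family genes 10 lie on chromosome 9, and between the outermost of them the RefSeq table (GRCm38.p6) lists no protein-coding gene other than these 10. In their order there, Mmp13, Mmp12, Mmp1b, Mmp3, Mmp1a, Mmp10, Mmp8, Mmp27, Mmp20 and Mmp7, 5 passed the filter. Mmp3 averaged 15514 over all 6 libraries and Mmp10 averaged 870, while Mmp1b between Mmp12 and Mmp3 averaged 0.315.

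**Figure D4:**
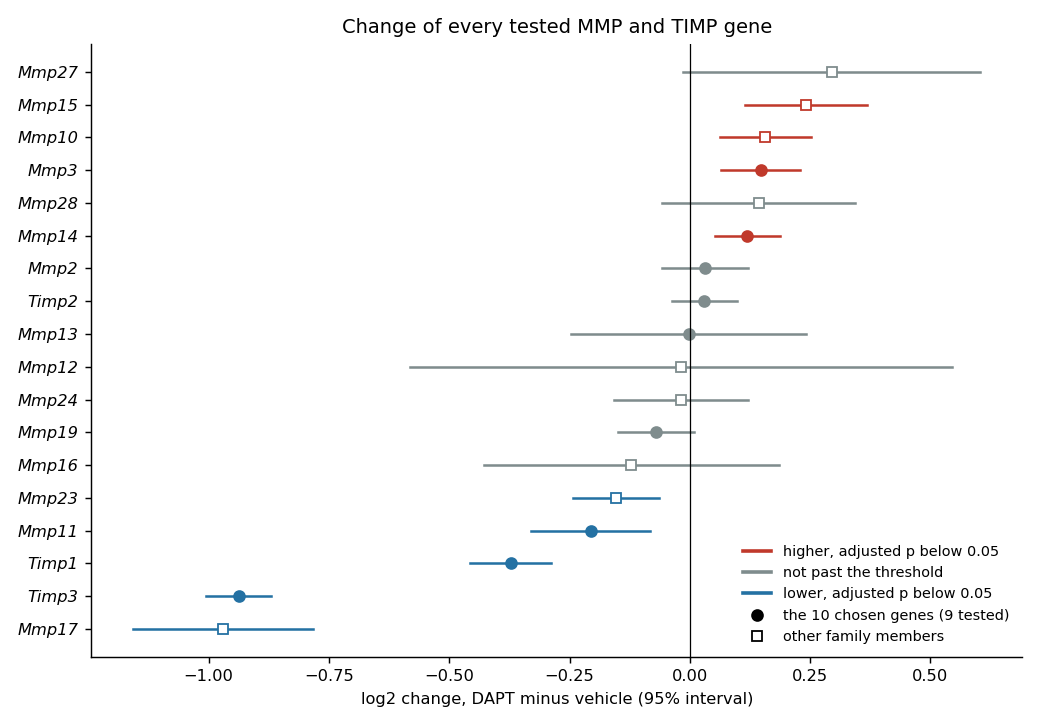
Log2 change, DAPT minus vehicle, of the 18 MMP and TIMP genes that passed the filter, with 95% intervals from limma, coloured by whether the adjusted p was below 0.05 and in which direction. Mmp17 at -0.97 and Timp3 at -0.94 lie far to the left, and the genes called higher lie between 0.12 and 0.24. Mmp27, which did not pass the threshold, lies furthest to the right at 0.29.

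By a rule on likeness over the 6 libraries, among the 12336 tested genes with a mean of at least 50, the genes whose log2 values followed Timp3 most closely were Ccdc80 (Pearson r = 0.9992), Syn3 (0.9990) and Nxn (0.9988). Those closest to Mmp3, the gene with the lower adjusted p of the 2 among the 10 chosen genes that rose, were Dstn (0.9967), Rmi1 (0.9915) and D730039F16Rik (0.9905). The 6 points share the contrast between the groups, and the correlations are descriptions. The exons of Syn3 and Timp3 share 1733 bases, where reads of the pair cannot be told apart.

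Of 16 listed genes that activate, bind or clear MMPs, 14 were tested, 7 of them fell, 1 rose and 6 missed the threshold, with a median log2 change of -0.15. Of all genes tested 8.91% fell and 9.22% rose. Thbs2, a thrombospondin that binds Mmp2 and carries it to a clearance receptor, fell 1.46-fold to 20070 ± 396 under DAPT, against 29277 ± 2032 in vehicle (SD, n = 3 each, limma adjusted p = 2.49e-10). Pcsk6, a proprotein convertase, fell 1.63-fold to 54.6 ± 6.06 under DAPT, against 89.3 ± 5.07 in vehicle (SD, n = 3 each, limma adjusted p = 0.000632), a call lost with DESeq2. The hyaluronan receptor Cd44, which can hold MMPs at the cell surface, rose 1.27-fold to 3352 ± 101 under DAPT, against 2635 ± 119 in vehicle (SD, n = 3 each, limma adjusted p = 2.36e-07). Among genes chosen after their values were seen, Reck, a membrane-anchored MMP inhibitor, fell to 1207 ± 23.9 under DAPT, against 1394 ± 59.7 in vehicle (SD, n = 3 each, limma adjusted p = 0.000831). Bsg, which encodes an inducer of MMPs, fell to 7654 ± 261 under DAPT, against 8809 ± 136 in vehicle (SD, n = 3 each, limma adjusted p = 7.37e-05). Furin, the convertase known to cut the precursors of Mmp11 and Mmp14, was at 1466 ± 51.3 under DAPT and 1547 ± 61.0 in vehicle (SD, n = 3 each, limma adjusted p = 0.217).

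The plasminogen system generates plasmin, which can activate several MMP precursors. Of its 12 listed genes 11 were in the table and 9 were tested, with 1 higher, 2 lower and 6 that missed the threshold and a median log2 change of -0.03. Plau, which encodes urokinase, fell 1.14-fold to 440 ± 20.5 under DAPT, against 501 ± 12.9 in vehicle (SD, n = 3 each, limma adjusted p = 0.0247), a call lost without DAPT replicate 1 or 2, without vehicle replicate 1 or 2, and with DESeq2. Serpinb8, an intracellular serpin, rose 1.30-fold to 545 ± 62.9 under DAPT, against 417 ± 38.6 in vehicle (SD, n = 3 each, limma adjusted p = 0.000524), a call lost with DESeq2. Plg itself had 0 reads in all 6 libraries. The share called was 33.3% of the tested plasminogen genes and 25% of 8 tested cysteine cathepsins and cystatins, against 18.1% of all genes tested. Of these cathepsins and cystatins, with a median log2 change of 0.07, 1 rose and 1 fell. These were Ctsk, a collagen-degrading cathepsin, at 727 ± 17.0 under DAPT and 564 ± 36.4 in vehicle (SD, n = 3 each, limma adjusted p = 1.67e-05), and Cst3, a cathepsin inhibitor, at 3437 ± 38.7 under DAPT and 3830 ± 57.6 in vehicle (SD, n = 3 each, limma adjusted p = 0.00124).

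Genes of matrix proteins that MMPs can cut mostly fell. Of 14 listed, all tested, 12 fell, 1 rose and 1 did not pass, with a median log2 change of -0.48. Across all genes tested 8.91% fell and 9.22% rose, and 21.8% of those with a mean of at least 100 were called either way. Tnc, the matrix protein tenascin-C, fell 2.23-fold to 1273 ± 103 under DAPT, against 2844 ± 225 in vehicle (SD, n = 3 each, limma adjusted p = 6.27e-14). Eln, elastin, fell 1.97-fold (limma adjusted p = 2.26e-11) and the proteoglycan gene Vcan rose 1.36-fold (limma adjusted p = 1.59e-09). Of 16 transcription factors known to act on MMP promoters 2 rose, 2 fell and 12 did not pass, with a median log2 change of 0.0034. The share called was 25% in this list, near the 18.1% of all genes tested and the 21.8% of those with a mean of at least 100. Ets1 rose 1.21-fold and Ets2 1.19-fold (limma adjusted p = 0.000188 and 1.10e-05). The AP-1 members Fos and Fosl2 fell, with log2 changes of -0.27 and -0.21 (limma adjusted p = 0.00498 and 4.98e-05), and the call of Fos was lost with DESeq2.

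**Figure D5:**
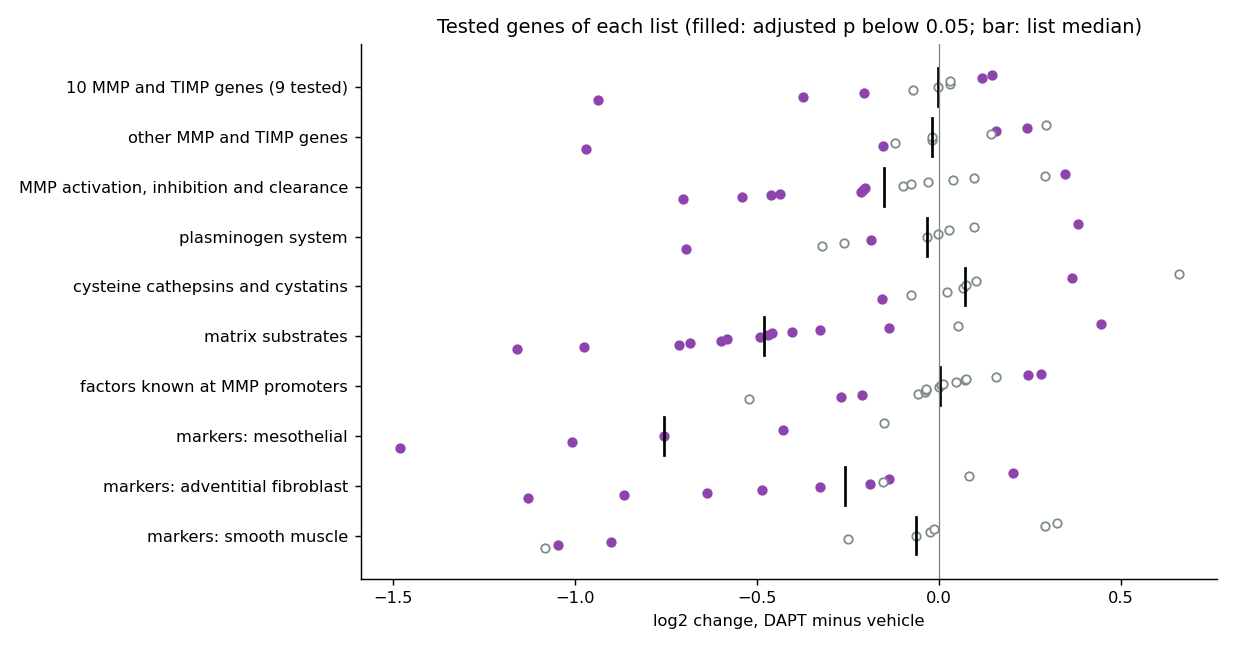
Log2 change, DAPT minus vehicle, of every tested gene in the 10 MMP and TIMP genes and in 9 further lists, filled where the limma adjusted p was below 0.05, with a bar at each list's median. The 14 matrix substrate genes have a median of -0.48 and the 10 MMP and TIMP genes, 9 of them tested, have a median of -0.0024.

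Recovered totals ran from 12159930 to 13488512 reads in the DAPT libraries and from 10702548 to 14503665 in the vehicle libraries. Of the markers of smooth muscle 9 of 10 were tested and 2 fell, or 22.2%, while 18.1% of all genes tested were called either way. The summed level was 10266 to 10667 under DAPT and 11015 to 11603 in vehicle. Most of this sum was Cald1, picked afterwards, at 8459 ± 166 under DAPT and 8606 ± 198 in vehicle (SD, n = 3 each, limma adjusted p = 0.667). Acta2 fell 2.07-fold and Tagln 1.87-fold (limma adjusted p = 4.23e-10 and 2.76e-11), Myh11 was low at 47.1 ± 3.99 under DAPT and 49.2 ± 4.28 in vehicle, and Myocd, a defining regulator of the contractile state, had 1 read or none in each library. In the list of 10 adventitial fibroblast markers, 7 fell, 1 rose and 2 missed the threshold, with summed levels of 31418 to 32853 under DAPT and 31840 to 34806 in vehicle. Igf1 fell 2.19-fold, Lum fell 1.82-fold and Ly6a rose by 0.20 on the log2 scale (limma adjusted p = 2.26e-12, 0.000539 and 0.000129). Of 7 markers of mesothelium 5 were tested and 4 fell. Lrrn4 fell 2.80-fold and Upk3b 2.01-fold (limma adjusted p = 2.42e-13 and 1.80e-13), while Krt8 was at 0 in all but 1 library. The part of adventitial or mesothelial cells in the changes of Timp3, Timp1 and Mmp17 was not tested, and in these bulk samples fewer cells of a type and less RNA per cell cannot be told apart.

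Of 8 markers of macrophages and leukocytes, cells known for Mmp9 and Mmp12, 4 were tested and 1 rose, with summed levels of 622 to 639 under DAPT and 555 to 607 in vehicle. Among all genes tested 9.22% rose. Cd68, the gene that rose, was at 218, 221 and 216 under DAPT and 166, 178 and 190.4 in vehicle (limma adjusted p = 0.0148), and its call was lost with DESeq2 and without DAPT replicate 2 or vehicle replicate 1. Emr1 and Cd52 had 0 reads in all 6 libraries, and Ptprc was at 0 in all but 1. Of 7 endothelial markers 3 were tested, and 0 passed with limma, edgeR or DESeq2, or at an unadjusted p below 0.05 in any of them, with summed levels of 596 to 618 under DAPT and 583 to 640 in vehicle. Kdr was at 529 ± 14.2 under DAPT and 541 ± 18.1 in vehicle, and Tek at 48.1 ± 2.20 under DAPT and 41.4 ± 14.0 in vehicle (SD, n = 3 each, limma adjusted p = 0.730 and 0.413), while Pecam1 and Cdh5, which define endothelium, had 3.54 or less in every library.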

How the data were processed

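RNA was sequenced in 6 libraries of mouse aortic smooth muscle cells, 3 with DAPT and 3 with vehicle, from total RNA by an Illumina kit, per the labels' protocols. Groups and numbers came from the sample titles, and the table's letters C and I were read as control and inhibitor. TopHat2 2.0.4, HTSeq 0.5.4p3, DESeq 1.16.0 and build mm9 are named, without roles, in the submitters' processing notes. No source used here gives the annotation, the filters or the use of strand. The authors deposited a signal per gene equal to the read count divided by 1 size factor per library. Divided by the value of 1 read, 100% of the values came out whole within 0.01 reads. DAPT replicate 3, with a size factor of 1.01, was left out of the count tests, although its values also came out whole. The count tests therefore used 5 libraries and had fewer DAPT libraries than limma. The deposited log2 ratio had the sign of DAPT over vehicle in 12210 of 12213 genes with both means above 50, and the test behind the deposited p-value per gene is not stated. RPKM columns of the authors played no part.

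Groups were compared two-sided on log2(value + 1) by limma 3.58.1 with a mean-variance trend, under R 4.3.3, on genes with at least 10 in at least 3 libraries, adjusted by Benjamini-Hochberg over all 14906 genes at 0.05, with no covariate. Fold changes understate the change of low genes. The limma fit was tested on simulated data with known changes. Intervals are 95%. Alternatives were pseudocounts of 0.5 and 5, no filter or one of 50, quantile or TMM scaling, a replicate block, robust empirical Bayes, edgeR 4.0.16, DESeq2 1.42.0 and leaving out each library. A planned test on RPKM per library was not run because the table gives RPKM per group. Members and lists were chosen with earlier results of these data known, so no list test was made. Named genes were the 10 members, every tested family member, and the called members of each list with the largest changes, up to 2 each way, or the 2 most abundant where none was called. Text on any other gene says that it was picked afterwards, apart from low or absent markers, and genes that overlap a member. For 1 gene that this rule names, the result is not reported here.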

Additional observations from a re-analysis of the deposited data

How the results depend on the processing

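The calls of Timp3, Timp1 and Mmp17 held under all 16 alternatives, while Mmp3, Mmp11 and Mmp14 are small changes that lost their call in 4, 4 and 3 of the 16. Both count tests and the limma fit without DAPT replicate 3 leave out that same library. For Mmp11 and Mmp14 the losses in these fits therefore share 1 omission and are not independent. With DESeq2 on 5 libraries 982 genes were called, 445 higher and 537 lower, against 2703, 1375 and 1328 with limma on 6. Of the 10 genes, DESeq2 called 0 higher and 2 lower (7.46% of genes with an adjusted p there), and edgeR called 0 higher and 2 lower (13.0% of all), in each case Timp3 and Timp1. At an unadjusted p below 0.05 these fits had 2 higher each, and 2 lower with DESeq2 and 3 with edgeR. Among the other family genes DESeq2 called 0 higher and 1 lower (2 and 1 at an unadjusted p below 0.05), and edgeR 1 higher and 1 lower. In the plasminogen list DESeq2 called 0 higher and 1 lower (1 and 2 at an unadjusted p below 0.05), and of the transcription factors 1 lower. It called 5 adventitial fibroblast markers and 3 mesothelial markers lower (7 and 4 at an unadjusted p below 0.05), while edgeR called 7 and 4 lower. Shares of all genes at an unadjusted p below 0.05 were not counted, so the unadjusted counts in this section have no baseline. Quantile scaling gave 2 cathepsins and cystatins and 2 matrix substrates higher. Leaving out 1 library gave 1868 to 2718 genes in all, 929 to 1401 higher and 939 to 1317 lower, and 1 to 2 of the 10 genes higher and 2 to 3 lower. It gave 1 to 2 other family genes higher and 1 to 2 lower, 1 to 2 plasminogen genes lower, 1 to 4 cathepsins and cystatins higher, and 1 to 2 matrix substrates higher. The 4 cathepsins and cystatins were called without vehicle replicate 3, and the 2 matrix substrates without vehicle replicate 1. The causes were not tested.

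The planned test on RPKM per library was not run, since RPKM is given per group. With the longest GENCODE M21 transcript as length, chosen with the merged exons after seeing the data, the protease sum under DAPT was 12737 and the inhibitor sums were 10702 under DAPT and 13462 in vehicle, with Timp3 at 24.6% of the sum under DAPT and 37.5% in vehicle. With merged exons the protease sums were 11605 under DAPT and 10671 in vehicle, the inhibitor sums 9276 under DAPT and 11026 in vehicle, and Timp3 16.5% under DAPT and 26.6% in vehicle. The inhibitor sum was lower under DAPT with each length. Same-numbered libraries did not deviate together from their group means over all genes tested (correlations 0.0267, -0.0175 and 0.0099). This check showed no pairing by number, but it cannot exclude that same-numbered libraries had a shared origin. A replicate block gave 2732 calls and the same counts for the 10 genes, 2 higher and 3 lower. Depth limits Mmp9, with 5 reads or fewer per library.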

Other observations

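Of the family genes below the filter, Mmp25, a leukocyte MMP with a lipid anchor, was listed at 2.84, 2.10 and 11.9 under DAPT and at 1.88, 3.60 and 3.54 in vehicle, which are 3, 2 and 12 reads under DAPT and 2, 3 and 4 in vehicle. Mmp8, the neutrophil collagenase, was at 1.90, 3.16 and 3.96 under DAPT and at 1.88, 3.60 and 0 in vehicle. Timp4, the inhibitor best known from the heart, was at 1.66 ± 0.592 under DAPT and 1.70 ± 0.733 in vehicle (SD, n = 3 each). Mmp7 and Mmp20 had 0 reads in all 6 libraries.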
